A study of Malus domestica with 36 samples.

Results

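The peel of 'Granny Smith' apples in the group labelled T2_RA_SL was compared with the peel of the group labelled T2_RA. The labels expand neither RA, SL, T1 nor T2, so the comparison is described here as SL against no SL in RA at T2. It used 6 of the 36 libraries of the study, 3 per group, and 32923 of the 57423 genes in the deposited table, those that reached 1 FPKM or more in 3 or more libraries of the whole study. FPKM is the read count of a gene scaled by its length and by the depth of its library, so levels of different genes can be set side by side.

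The study followed fruit through 3 storage regimes, RA, ULO with 1% oxygen and DCA_CF with less than 1% oxygen, each with and without SL and at T1 and T2, in a study of superficial scald. Every library came from peel of the single genotype 'Granny Smith', with 3 biological replicates lettered a to c in each of the 12 groups. The groups used here were T2_RA_SL and T2_RA for the main comparison and T1_RA_SL and T1_RA for RA at T1. T2_ULO_SL and T2_ULO were used for ULO, and T2_DCA_CF_SL and T2_DCA_CF for DCA_CF. The labels do not say how many fruits a replicate pooled.

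Superficial scald is a browning of the peel of stored apples, and 'Granny Smith' is a susceptible cultivar. Oxidation products of the sesquiterpene α-farnesene, the ripening hormone ethylene and the enzymatic oxidation of phenolics have long been studied in it. Flavonoid synthesis starts with chalcone synthase (CHS) and flavanone 3-hydroxylase (F3H) and runs through dihydroflavonol reductase (DFR) and anthocyanidin synthase (ANS). From there, anthocyanidin reductase (ANR) and leucoanthocyanidin reductase (LAR) lead to flavan-3-ols and proanthocyanidins, while glycosyltransferases lead to anthocyanins, and complexes of MYB, bHLH and WD40 proteins switch the genes of these steps on.

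Summed FPKM ran from 744641 to 754529 in the T2_RA_SL libraries and from 713808 to 726417 in the T2_RA libraries, and 35540 to 35928 against 36574 to 37276 genes were listed above 0. The files give no read counts. The spacing of low values put the depth of the 6 libraries, as an approximation, between 1 and 1.17 times that of the shallowest of them. For genes of 10 to 100 FPKM replicates varied with a median coefficient of variation of 4.27% in T2_RA_SL and 4.43% in T2_RA, and for genes of 1 to 3 FPKM of 14.0% and 14.5%. Peel genes were at high levels in both groups, among them the α-farnesene synthase gene AFS1, the triterpene cyclase genes OSC1 and OSC3 and the lipid transfer protein gene MALD3. In bulk peel, fewer cells of a type and less RNA per cell cannot be told apart.

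SL against no SL changed most genes by a small amount. With limma on log2(FPKM + 1) and Benjamini-Hochberg adjustment over the 32923 genes, 19365 genes passed a false discovery rate of 0.05, which is 58.8% of those tested. Of these, 8974 genes (27.3%) were higher in T2_RA_SL and 10391 (31.6%) were lower. At least a 2-fold difference on that scale was found for 2359 higher genes (7.17%) and 3040 lower genes (9.23%), at least 4-fold for 562 and 873, and at least 16-fold for 50 and 116. The median log2 fold change over all genes was -0.03, with an interquartile range from -0.43 to 0.35. With 58.8% of all genes past the threshold, the size of a change says more than the call. Only 558 of the tested genes (1.69%) carry a gene name in the files or the RefSeq table, and the accounts of gene groups below are limited to these.

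Among named genes the flavonoid pathway stood out by size. Of its 12 enzyme genes measured, 10 were higher in T2_RA_SL, 1 was lower and 1 did not pass the test, against the background of 58.8% called, and the median log2 fold change was 3.35 beside -0.03 over all genes. All 10 higher genes passed the 2-fold mark, which 7.17% of all genes did in that direction. ANS, UFGT1 and LAR2 passed the filter on low values only with the compared libraries, so that they had to differ. Of the 9 enzyme genes that passed it in the 30 libraries outside the comparison, 7 were higher and 1 was lower, with a median of 3.47. As first written, before symbols matched in error and regulators were taken out by name after results were seen, the list held 26 tested genes, 15 higher and 6 lower, with a median of 1.30. 

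At the entry of the pathway, chalcone synthase joins the first flavonoid skeleton. CHS1 was at 601, 622 and 627 FPKM in T2_RA_SL, against 1.90, 2.24 and 1.73 FPKM in T2_RA, and the groups were far apart. Its log2 fold change was 7.71 ± 0.13 (SE; limma adjusted p = 1.47e-26). MdCHS, another chalcone synthase gene, was at 179, 186 and 190.1 FPKM in T2_RA_SL, against 0.708, 0.818 and 0.572 FPKM in T2_RA. CHS-2 was at 134, 138 and 142 FPKM in T2_RA_SL, against 13.6, 13.1 and 14.6 FPKM in T2_RA. The log2 fold changes of MdCHS and CHS-2 were 6.78 and 3.24, and only CHS-2 of the 3 copies had more than 3 FPKM in T2_RA. The 3 copies are similar in sequence, and how the authors' counting divided shared reads among them is not given in the sources used here.

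Flavanone 3-hydroxylase, a later step of the pathway, is represented by a pair of genes that were already expressed without SL. F3H was at 332, 339 and 342 FPKM in T2_RA_SL, against 30.8, 28.3 and 29.7 FPKM in T2_RA. MdF3H was at 258, 254 and 262 FPKM in T2_RA_SL, against 20.0, 18.7 and 19.9 FPKM in T2_RA. Both genes rose about equally, by 3.47 ± 0.05 and 3.66 ± 0.05 on the log2 scale (SE; limma adjusted p = 7.81e-29 and 1.8e-28).

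The steps after it were close to 0 in T2_RA. DFR, which makes the colourless leucoanthocyanidins, was at 178, 185 and 192 FPKM in T2_RA_SL, against 0.289, 0 and 0.704 FPKM in T2_RA (log2 fold change 7.16 ± 0.11, SE; limma adjusted p = 2.63e-27). ANS, which oxidises them to anthocyanidins, was at 85.5, 86.7 and 85.6 FPKM in T2_RA_SL and was listed at 0 in all 3 T2_RA libraries. UFGT1, named as a flavonoid glycosyltransferase, reached only 3.29, 3.45 and 3.69 FPKM in T2_RA_SL and was listed at 0 in all 3 T2_RA libraries. No fold is given for ANS and UFGT1, whose fitted log2 differences of 6.44 and 2.16 depend on the pseudocount of 1 FPKM.

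On the branch to flavan-3-ols, ANR2a was at 137, 142 and 146 FPKM in T2_RA_SL, against 20.5, 19.0 and 19.8 FPKM in T2_RA (log2 fold change 2.78 ± 0.12, SE; limma adjusted p = 2.24e-17). LAR2 was low in both groups, with 7.30, 5.85 and 7.53 FPKM in T2_RA_SL, against 0.230, 0.179 and 0 FPKM in T2_RA. These 2 genes did not overlap between the groups, as 66% of all tested genes did not. LAR1 had 8.36, 8.0 and 8.53 FPKM in T2_RA_SL, against 11.7, 0 and 12.5 FPKM in T2_RA, and did not pass the test (limma adjusted p = 0.579). Flavonol synthase FLS, which draws dihydroflavonols away to flavonols, was the 1 lower gene, with 0.651, 0 and 0 FPKM in T2_RA_SL, against 3.08, 2.79 and 26.1 FPKM in T2_RA. The FLS values did not overlap, but its call (limma adjusted p = 0.0252) was lost without replicate b or c of T2_RA_SL (0.0632 and 0.0634) and without replicate c of T2_RA (0.181). Across 701 genes in the 2 groups, as for LAR1, a replicate was listed at 0 beside another of at least 5 FPKM in the same group.

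**Figure D1:**
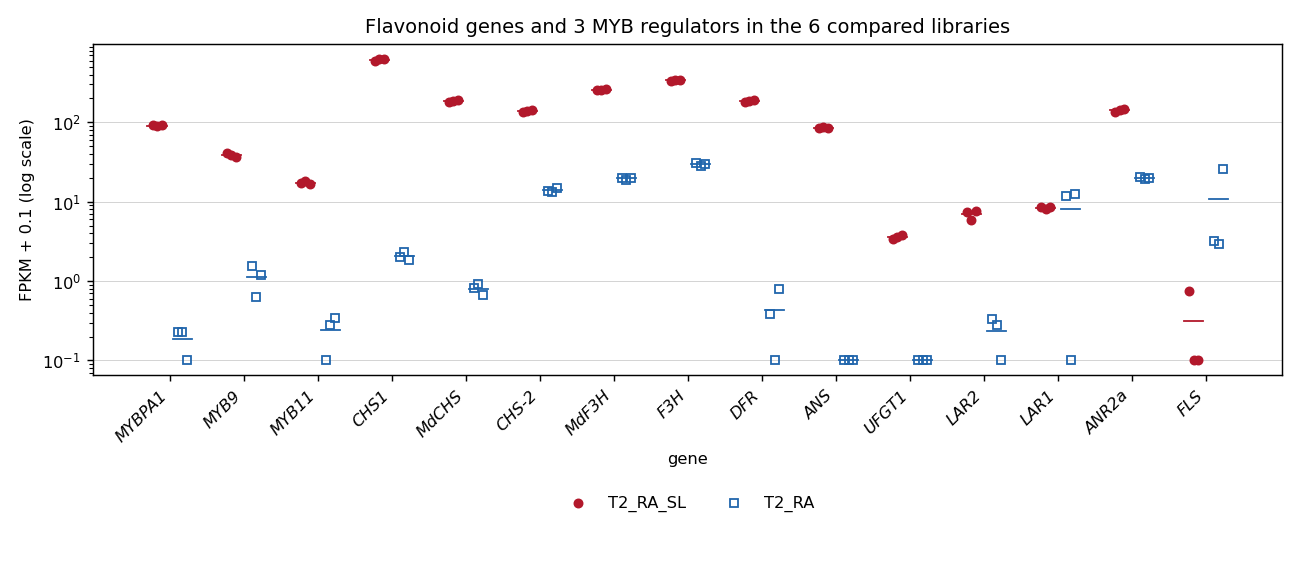
FPKM + 0.1 on a log axis for 3 MYB regulators and 12 flavonoid enzyme genes in the 3 T2_RA_SL libraries (filled circles) and the 3 T2_RA libraries (open squares), with a line at each group mean. CHS1, at 601 to 627 FPKM against 1.73 to 2.24 FPKM, and ANS, listed at 0 in T2_RA, are among the genes with clear separation, while LAR1 overlaps.

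Regulators of the MYB, bHLH and WD40 kinds did not move together. MYBPA1, which bears the name of a grapevine activator of proanthocyanidin synthesis, was at 91.3, 88.8 and 92.5 FPKM in T2_RA_SL, against 0.128, 0.129 and 0 FPKM in T2_RA (log2 fold change 6.41 ± 0.09, SE; limma adjusted p = 5.23e-29). MYB9, an apple activator of flavonoid genes, was at 40.8, 39.0 and 36.0 FPKM in T2_RA_SL, against 1.45, 0.530 and 1.08 FPKM in T2_RA. MYB11, described in apple as its partner in function, was at 17.3, 18 and 16.7 FPKM in T2_RA_SL, against 0, 0.183 and 0.246 FPKM in T2_RA. MYB9 and MYB11 rose by 4.32 and 4.01 on the log2 scale. None of the 3 genes overlapped between groups, as 66% of all tested genes did not. MYBPA1 and MYB9 passed the filter on low values only with the compared libraries, which favoured a difference. MYB10, the activator behind red colour in apple skin, did not pass the filter on low values and was not tested. The bHLH partner genes BHLH3 and bHLH3b rose by 0.56 and 0.31 on the log2 scale, to 17.0 ± 0.120 and 23.8 ± 0.837 FPKM in T2_RA_SL, against 11.2 ± 0.788 and 19.0 ± 0.806 FPKM in T2_RA (SD, n = 3 each). The WD40 gene TTG1 fell, with 29.5 ± 1.45 FPKM in T2_RA_SL and 60.4 ± 1.43 FPKM in T2_RA (SD, n = 3 each; log2 fold change -1.01). MYB12 and MYB111, named after activators of flavonol synthesis in Arabidopsis, did not rise. MYB12 was at 9.59 ± 0.290 FPKM in T2_RA_SL and 9.74 ± 0.129 FPKM in T2_RA (SD, n = 3 each; limma adjusted p = 0.834), and MYB111 fell by 0.84.

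High flavonoid gene levels were seen in T2_RA_SL and in no other group of the study to that extent. In 7 of the 9 enzyme genes that passed the filter without the compared libraries, all 3 T2_RA_SL libraries were above all 33 other libraries, which held for 710 of the 32355 genes that passed in the same way (2.19%). For 6 of the 9 the lowest T2_RA_SL library was at least 4-fold above the highest other library, as it was for 20 of the 32355 genes (0.0618%). Of these 20 genes, 7 have a name, and they are the enzyme genes CHS1, MdCHS, CHS-2, F3H, MdF3H and DFR and the regulator MYB11. ANS, UFGT1, LAR2, MYBPA1 and MYB9 also stood above all 33 other libraries, but they entered the test only with the compared libraries, and for them the filter favoured that outcome.

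The gap to the nearest other library differed by gene. For CHS1 the lowest T2_RA_SL library had 600.9 FPKM, and the highest library elsewhere, in T2_DCA_CF, had 6.79 FPKM. For MYBPA1 the same values were 88.8 and 0.30 FPKM, and for ANS 85.5 and 0.331 FPKM. F3H and DFR were expressed in other groups too, at lower levels. DFR averaged 185 ± 6.80 FPKM in T2_RA_SL, beside 22.3 ± 1.27 FPKM in T2_DCA_CF and 19.5 ± 2.26 FPKM in T1_DCA_CF (SD, n = 3 each). F3H averaged 338 ± 5.15 FPKM in T2_RA_SL, beside 69.2 ± 3.24 FPKM in T2_DCA_CF and 60.5 ± 1.45 FPKM in T2_ULO (SD, n = 3 each). ANR2a was also higher with SL in RA at T1 (log2 fold change 1.29), in ULO at T2 (0.98) and in DCA_CF at T2 (1.07), and DFR was also higher with SL in RA at T1.

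**Figure D2:**
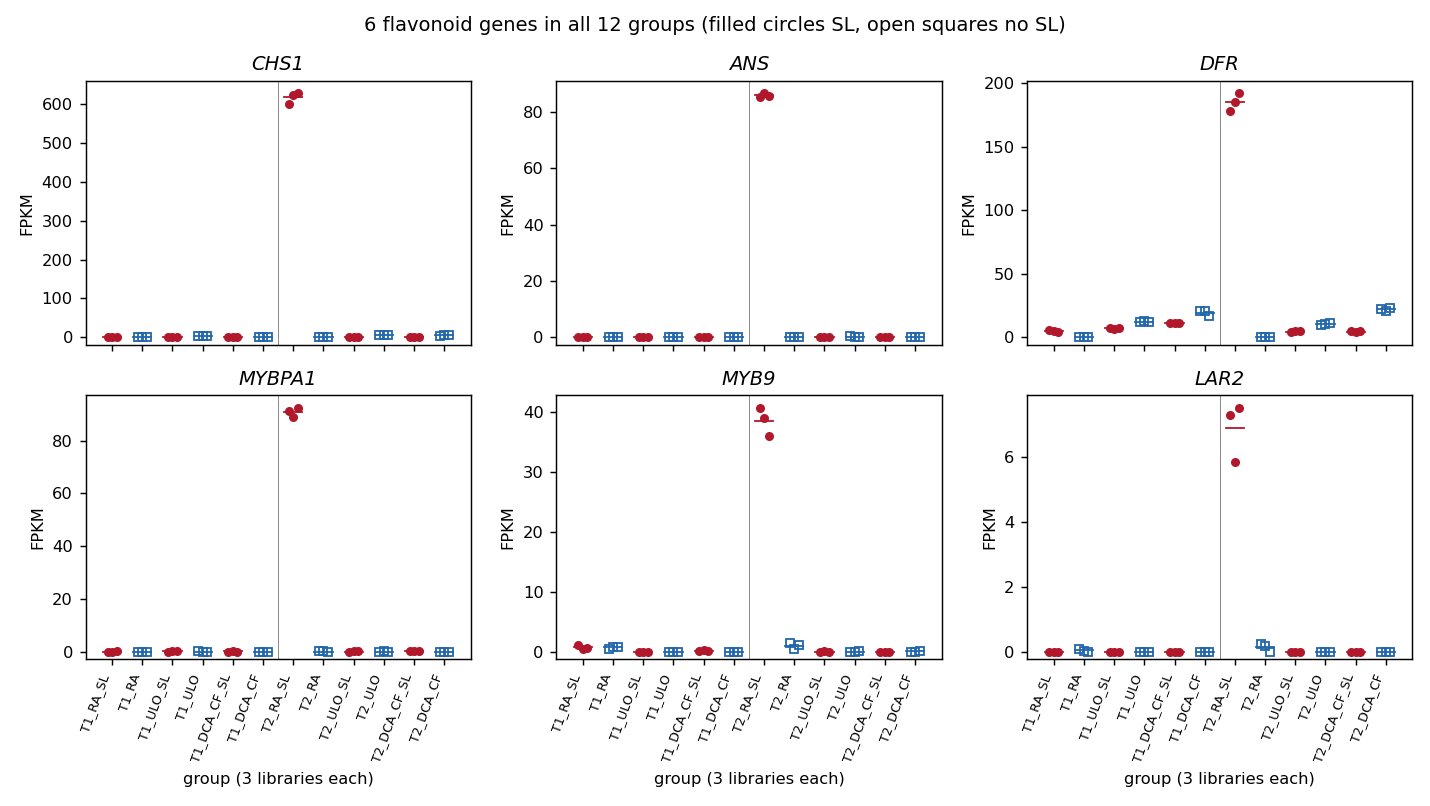
FPKM on linear axes of CHS1, ANS, DFR, MYBPA1, MYB9 and LAR2 in every library of the 12 groups, with SL as filled circles, no SL as open squares and a line at each group mean. The T2_RA_SL libraries stand above all 33 others in each panel, while DFR also has group means of up to 22.3 FPKM elsewhere.

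All 4 tested genes listed under phenylpropanoid entry and lignin, CAD and the O-methyltransferase genes OMT1, OMT3 and OMT5, were higher in T2_RA_SL. Their median log2 fold change was 0.97 beside -0.03 over all genes, of which 27.3% were higher and 31.6% lower. No gene of the entry steps was among them. All 4 were also higher with SL in RA at T1, in ULO at T2 and in DCA_CF at T2 (medians 1.62, 1.13 and 1.24). Over all genes 26.4%, 18.6% and 16.7% were higher in these comparisons, with medians of -0.07, -0.21 and -0.24. The O-methyltransferase gene OMT1 was at 846, 872 and 867 FPKM in T2_RA_SL, against 71, 68.4 and 71.6 FPKM in T2_RA (log2 fold change 3.60 ± 0.04, SE; limma adjusted p = 7.41e-31). CAD, which makes the alcohols polymerised into lignin, averaged 2534 ± 14.6 FPKM in T2_RA_SL and 1123 ± 76.2 FPKM in T2_RA (SD, n = 3 each). Neither overlapped between the groups, as 66% of all tested genes did not. The 4 glycosyltransferase genes listed for the apple dihydrochalcone phloridzin changed little, 2 higher and 2 lower, between -0.71 for UGT71K1 and 0.44 for UGT88F4 on the log2 scale. PPO, the polyphenol oxidase that browns phenolics, fell, with 927, 946 and 948 FPKM in T2_RA_SL, against 1301, 1299 and 1332 FPKM in T2_RA (log2 fold change -0.48 ± 0.05, SE; limma adjusted p = 7.1e-10).

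The gene for α-farnesene synthesis and the genes around it moved in opposite directions. AFS1, the last step to α-farnesene, was at 1138, 1220.4 and 1204 FPKM in T2_RA_SL, against 248, 247 and 251 FPKM in T2_RA (log2 fold change 2.25 ± 0.03, SE; limma adjusted p = 1.02e-29). Its groups did not overlap, as those of 66% of all tested genes did not. The other 7 of 8 genes in the list were lower, while 31.6% of all genes were. The list's median was -1.11 beside -0.03 over all genes. HMG1, a gene of the mevalonate pathway that feeds farnesene and triterpenes alike, was at 476, 508 and 486 FPKM in T2_RA_SL, against 917, 907 and 949 FPKM in T2_RA. FPPS, for the farnesyl diphosphate step before AFS1, was uneven, with 3.26, 26 and 24.7 FPKM in T2_RA_SL, against 164, 53.7 and 154 FPKM in T2_RA. Its call (limma adjusted p = 0.0133) was lost with a pseudocount of 0.1 (0.217) and without replicate a of T2_RA_SL (0.108).

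Oxidosqualene cyclases close the ring of the peel triterpenes. OSC1 and OSC3 fell by 0.96 and 0.94 on the log2 scale, to 407 ± 9.49 and 223 ± 3.74 FPKM in T2_RA_SL, against 793 ± 17.7 and 430.0 ± 6.68 FPKM in T2_RA (SD, n = 3 each). OSC4 was at 9.61, 10.5 and 13.8 FPKM in T2_RA_SL, against 148, 172 and 198 FPKM in T2_RA, the largest fall of the list (log2 fold change -3.82 ± 0.13, SE; limma adjusted p = 6.48e-20). HMG2 fell by 1.42 on the log2 scale from low levels. OSC5 was at 0, 0.216 and 0 FPKM in T2_RA_SL, against 4.19, 0 and 2.18 FPKM in T2_RA, so that its groups overlapped although it passed the test (limma adjusted p = 0.000873, and 0.139 from the 6 libraries alone).

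Ethylene is made from ACC by the synthases (ACS) and the oxidase (ACO). Of 6 genes for these enzymes, 3 were higher, 2 were lower and 1 did not pass the test, beside 27.3% higher and 31.6% lower over all genes. ACS1, the ripening ACC synthase of apple, was at 18.5, 17.3 and 17.0 FPKM in T2_RA_SL, against 3.50, 3.96 and 4.35 FPKM in T2_RA (log2 fold change 1.92 ± 0.06, SE; limma adjusted p = 5.85e-20). ACS-5A went the other way, with 1.23, 1.68 and 1.44 FPKM in T2_RA_SL, against 107, 109 and 114 FPKM in T2_RA (log2 fold change -5.50 ± 0.07, SE; limma adjusted p = 8.38e-30), the largest fall among the genes named by rule. ACS-5B fell to 0.271 ± 0.115 FPKM in T2_RA_SL, against 7.78 ± 0.297 FPKM in T2_RA (SD, n = 3 each). ACS3a was at 3.08, 3.14 and 2.70 FPKM in T2_RA_SL and was listed at 0 in all 3 T2_RA libraries. ACO1 stood among the most abundant named genes, with 4894, 5044 and 4928 FPKM in T2_RA_SL, against 4618, 4553 and 4402 FPKM in T2_RA. This small difference of ACO1 (log2 fold change 0.13; limma adjusted p = 0.00972) was lost with relative log expression factors (0.0804) and without replicate c of T2_RA (0.051).

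Ethylene perception shifted by less than 2-fold throughout. Of 12 genes, 5 were higher and 4 lower, beside 27.3% and 31.6% of all genes, and the median was 0.01. The receptor genes split, since ERS1 rose by 0.71 on the log2 scale while ETR1, ETR2 and ETR5 fell by 0.33, 0.72 and 0.77. EBF1 and the transcription factor genes EIL1, EIL2 and EIL3 rose by 0.33 to 0.52, and CTR1, a brake on the pathway, fell by 0.48. The ethylene response factor gene ERF1 rose to 527 ± 20.9 FPKM in T2_RA_SL, against 171 ± 3.92 FPKM in T2_RA (SD, n = 3 each; log2 fold change 1.61).

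Genes of fermentation and of the GABA shunt, which apples use under low oxygen, also split, 3 higher and 4 lower of 7. Their median was -1.51, and over all genes 27.3% were higher and 31.6% lower. The list as first written had 2 higher and 3 lower of 6, with a median of -0.74. GAD1, a glutamate decarboxylase that makes GABA, was at 170.1, 163 and 170.2 FPKM in T2_RA_SL, against 40.9, 42.1 and 38.8 FPKM in T2_RA (log2 fold change 2.02 ± 0.03, SE; limma adjusted p = 5.44e-29). Its relatives did the opposite. GAD2 was at 6.95, 6.22 and 6.46 FPKM in T2_RA_SL, against 30.2, 33.9 and 32.2 FPKM in T2_RA, and GAD3 was at 0.0908, 0.0576 and 0 FPKM in T2_RA_SL, against 9.84, 9.14 and 9.29 FPKM in T2_RA. GABA-T1 and GABA-T2, the transaminases that remove GABA, rose by 0.73 and 0.99 on the log2 scale. ADH1-1, an alcohol dehydrogenase of ethanol fermentation, fell to 23.0 ± 0.996 FPKM in T2_RA_SL, against 77.2 ± 1.39 FPKM in T2_RA (SD, n = 3 each; log2 fold change -1.71). GLB1 fell by 1.51 on the log2 scale.

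**Figure D3:**
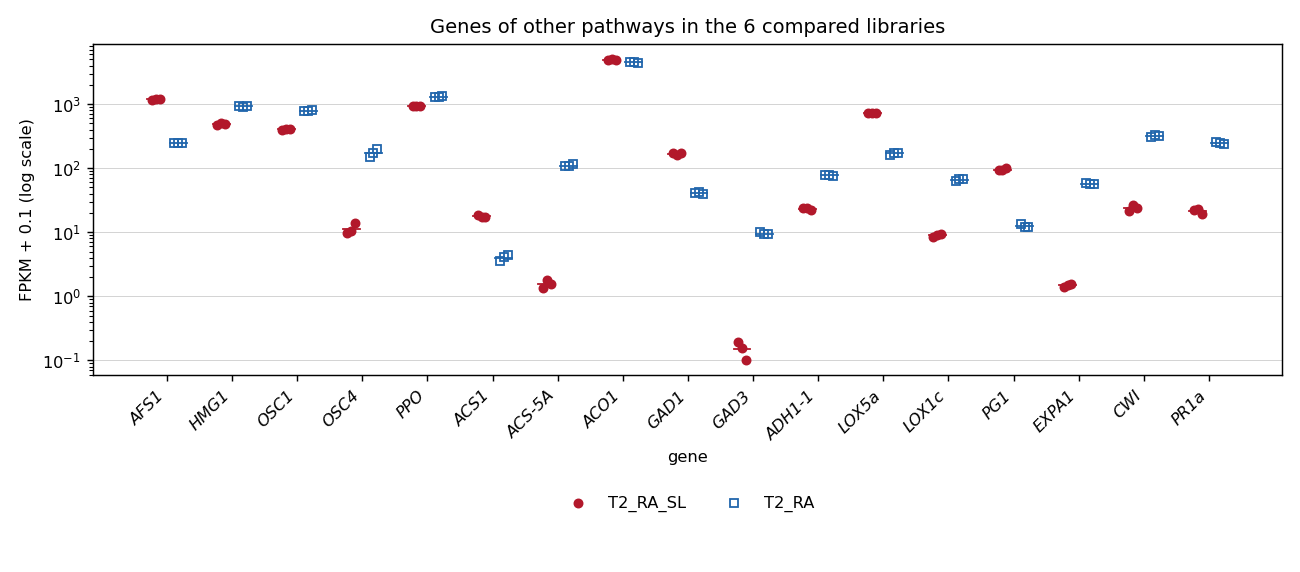
FPKM + 0.1 on a log axis for genes of terpene, ethylene, GABA, lipoxygenase, cell wall and defence functions in the 3 T2_RA_SL libraries (filled circles) and the 3 T2_RA libraries (open squares), with a line at each group mean. AFS1 at 1138 to 1220.4 FPKM stands above its 247 to 251 FPKM without SL, while ACS-5A, GAD3 and EXPA1 lie far below theirs.

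Lipoxygenases open the path to the aldehydes, alcohols and esters of apple aroma. Of 15 genes for lipoxygenases and ester synthesis, 9 were higher and 4 lower, beside 27.3% and 31.6% of all genes, with a median of 0.43. LOX5a was at 721, 736 and 734 FPKM in T2_RA_SL, against 161, 174 and 174 FPKM in T2_RA (log2 fold change 2.10 ± 0.05, SE; limma adjusted p = 3.66e-23). LOX1a, the most abundant, averaged 1756 ± 48.4 FPKM in T2_RA_SL and 604 ± 24.2 FPKM in T2_RA (SD, n = 3 each). LOX5b had the largest rise in the group, to 98.5 ± 1.16 FPKM in T2_RA_SL, against 5.72 ± 0.213 FPKM in T2_RA (SD, n = 3 each; log2 fold change 3.89). LOX1c fell instead, with 8.37, 9.03 and 9.19 FPKM in T2_RA_SL, against 63.6, 66.8 and 67.9 FPKM in T2_RA. AAT1, the alcohol acyltransferase of ester synthesis, stayed close, at 214 ± 2.61 FPKM in T2_RA_SL and 196 ± 8.85 FPKM in T2_RA (SD, n = 3 each). Its log2 fold change of 0.13 passed the test but not with each library scaled to the same total (limma adjusted p = 0.056), and AAT2 did not pass it.

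Cell wall genes did not share a direction, with 3 of 5 higher and 2 lower, and 4 of 9 higher and 5 lower in the list as first written, which took in ARF symbols of several meanings. Shares over all genes were 27.3% higher and 31.6% lower. PG1, the polygalacturonase of apple softening, was at 92.4, 92.2 and 99.2 FPKM in T2_RA_SL, against 13.1, 11.9 and 12 FPKM in T2_RA (log2 fold change 2.84 ± 0.05, SE; limma adjusted p = 4.9e-27). EXPA1, an expansin that loosens walls, was at 1.31, 1.39 and 1.47 FPKM in T2_RA_SL, against 58.1, 56.7 and 55.6 FPKM in T2_RA (log2 fold change -4.60 ± 0.09, SE; limma adjusted p = 2.2e-25). Both sets of libraries were far apart for each gene. The xyloglucan endotransglycosylase genes XET02 and XET01 moved apart by less, 0.71 higher and 0.52 lower on the log2 scale, and BGAL101 rose by 0.43.

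Sugar genes showed the same mixture, 8 higher and 4 lower of 15, beside 27.3% and 31.6% of all genes, with a median of 0.35. The cell wall invertase gene CWI, which splits sucrose outside the cell, was at 21.7, 26.3 and 23.9 FPKM in T2_RA_SL, against 306, 324 and 320.3 FPKM in T2_RA (log2 fold change -3.67 ± 0.09, SE; limma adjusted p = 9.93e-23). Sorbitol, the main transported sugar alcohol of apple, is oxidised by sorbitol dehydrogenases. SDH2 was at 516, 515 and 514 FPKM in T2_RA_SL, against 128, 136 and 129 FPKM in T2_RA, and SDH1 rose by 0.60 on the log2 scale. The sorbitol transporter gene SOT4 fell to 32.0 ± 0.357 FPKM in T2_RA_SL, against 95.5 ± 1.35 FPKM in T2_RA (SD, n = 3 each), and SOT3 rose by 0.95. Starch synthase genes GBSSIa and GBSSIb rose by 0.93 and 0.69.

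Defence genes and allergens included some of the most abundant in peel. Of 9, 5 were higher and 3 lower, beside 27.3% and 31.6% of all genes, with a median of 0.10. The list as first written had 8 higher and 3 lower of 12, with a median of 0.28. The polygalacturonase inhibitor gene PGIP2, 1 of the 5, lost its call in several settings. Among them were relative log expression factors (limma adjusted p = 0.132) and each library scaled to the same total (0.432). The thaumatin-like genes TL1 and PR-5b rose to 2124 ± 19.6 and 1425 ± 14.5 FPKM in T2_RA_SL, against 881 ± 24.1 and 539.5 ± 25.3 FPKM in T2_RA (SD, n = 3 each). PR1a, a marker of salicylic acid responses in many plants, was at 21.8, 23.2 and 19.4 FPKM in T2_RA_SL, against 259, 247 and 238 FPKM in T2_RA (log2 fold change -3.47 ± 0.14, SE; limma adjusted p = 2.76e-18). The chitinase gene CHT-3 was at 0, 0.206 and 0.249 FPKM in T2_RA_SL, against 10.6, 8.08 and 8.70 FPKM in T2_RA. These allergens and defence genes have close copies, so that reads may have been shared between family members.

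Cold and heat genes were mostly lower in T2_RA_SL. Of 6 genes of cold and dehydration response, 4 were lower, 1 was higher (2 without replicate b of T2_RA_SL) and 1 did not pass the test, with a median of -0.76. Among all genes 31.6% were lower and 27.3% higher. The dehydrin gene DHN2, of a family that protects cells from water loss, was at 547, 537 and 539.7 FPKM in T2_RA_SL, against 1248, 1173 and 1194 FPKM in T2_RA. DHN9 was the 1 higher gene, at 5316, 5139 and 5227 FPKM in T2_RA_SL, against 1448, 1388 and 1437 FPKM in T2_RA (log2 fold change 1.88 ± 0.04, SE; limma adjusted p = 1.21e-24). Of 8 heat shock genes, all 6 heat shock factor genes were lower, by 0.60 to 1.34 on the log2 scale, while the heat shock protein genes HSP90.5 and Hsp2 rose by 1.39 and 0.83. The list's median was -0.83.

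Transcription factor families gave a mixed picture outside the flavonoid regulators. Their counts stand beside 27.3% higher and 31.6% lower over all genes. AP2/ERF genes had 8 higher and 21 lower of 38, with a median of -0.20, the lowest ones being AP2D32 and AP2D27 at -2.80 and -2.76. Of 45 MYB genes, 19 were higher and 14 lower, with a median of 0.09, and MYB6 rose by 2.08. NAC genes were nearly balanced, 8 higher and 7 lower of 18, with NAC3 at 1.82 and NAC11 at -2.19. Homeodomain genes had 9 higher and 3 lower of 15 (1 lower without replicate c of T2_RA_SL), led by HD16, which rose to 165 ± 6.29 FPKM in T2_RA_SL, against 21.2 ± 0.753 FPKM in T2_RA (SD, n = 3 each). WRKY genes had 4 higher and 6 lower of 13, bZIP genes 5 and 5 of 13, bHLH genes 5 and 1 of 9, MADS-box genes 6 and 2 of 11 and TCP genes 1 and 6 of 10. The lower MADS-box genes were 1 without any single compared library other than replicate c of T2_RA. They were 0 with the filter applied to the 6 compared libraries, where no TCP gene was higher. HY5, a bZIP activator of light responses and of flavonoid genes in Arabidopsis, fell, with 7.6, 6.35 and 6.82 FPKM in T2_RA_SL, against 20.0, 24 and 21.8 FPKM in T2_RA (log2 fold change -1.53 ± 0.15, SE; limma adjusted p = 1.52e-09). Auxin response Aux/IAA genes had 2 higher and 5 lower of 9, with IAA4 at -1.44 and IAA12 at 1.18. These Aux/IAA counts were 1 higher without replicate a or c of T2_RA_SL or replicate a or b of T2_RA, and 3 lower without replicate a or b of T2_RA_SL or replicate a of T2_RA. Kinase and abscisic acid genes had 16 higher and 9 lower of 34, with CIPK28 at 1.78 and CIPK25 at -2.66.

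**Figure D4:**
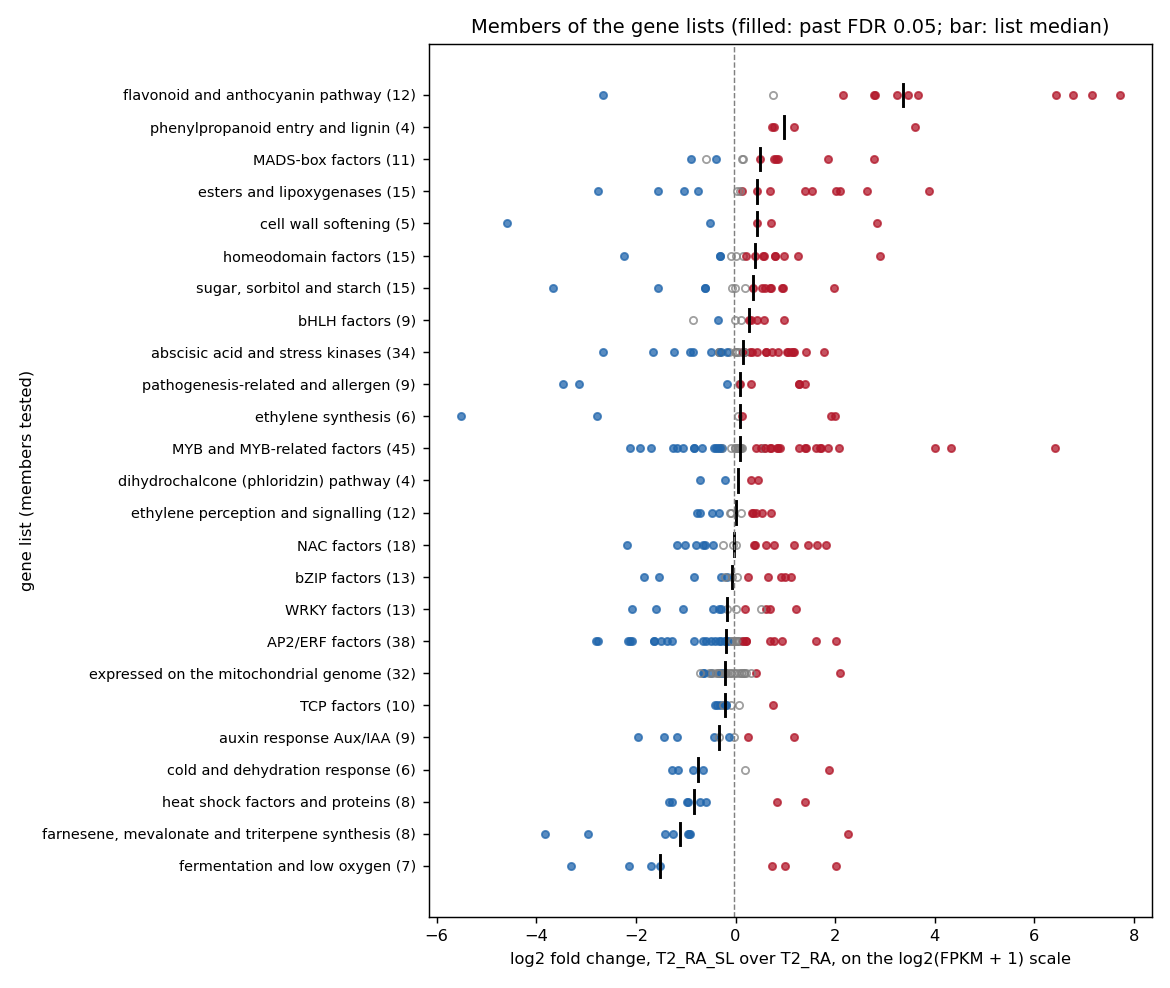
Log2 fold change of T2_RA_SL over T2_RA on the log2(FPKM + 1) scale for each tested member of 25 gene lists, filled where the gene passed a false discovery rate of 0.05 and open where it did not, with a black bar at the list median and a dashed line at the median over all genes, -0.03. The flavonoid list has a median of 3.35 and the fermentation list one of -1.51, against 1.30 and -0.74 in these lists as first written.

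The SL response in RA at T2 was then set beside the response at T1, which uses other libraries. In RA at T1, 61.6% of genes passed the test, 8690 (26.4%) higher and 11607 (35.3%) lower with SL, and 7.34% were at least 2-fold higher and 9.81% at least 2-fold lower. Of the 2359 genes at least 2-fold higher at T2, 1222 were also at least 2-fold higher at T1, which is 51.8% of the T2 genes and 50.6% of the 2415 T1 genes, and 30 were 2-fold lower at T1. Of the 3040 genes at least 2-fold lower, 1728 were shared, 56.8% of the T2 genes and 53.5% of the 3231 T1 genes. Across the 32923 genes, which are not independent replicates, the log2 fold changes at the 2 times had a Pearson correlation of 0.632. The interaction term, T2 response minus T1 response, passed the false discovery rate of 0.05 for 14533 genes (44.1%), 7736 higher (23.5%) and 6797 lower (20.6%). The larger side depended on scaling, with 6810 higher and 7790 lower with relative log expression factors and 6848 higher and 7317 lower with each library scaled to the same total.

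The large flavonoid differences were found at T2. The median log2 fold change of the 12 enzyme genes was 3.35 at T2 and -0.26 at T1, where 2 genes were higher with SL and 4 were lower. Over all genes at T1, 26.4% were higher and 35.3% lower, with a median of -0.07. CHS1 averaged 1.11 ± 0.137 FPKM in T1_RA_SL and 1.90 ± 0.309 FPKM in T1_RA (SD, n = 3 each), and its interaction was 8.17 on the log2 scale (limma adjusted p = 6.17e-23). ANS was listed at 0 in the 6 T1 libraries of RA. DFR and ANR2a were the 2 genes higher at T1, and DFR reached 5.05 ± 0.593 FPKM in T1_RA_SL (SD, n = 3) and was listed at 0 in T1_RA. The interaction of DFR was 4.57 (limma adjusted p = 8.67e-19). For MYBPA1 and MYB9 the T1 response was 0.05 and -0.01, neither past the test, and the interactions were 6.35 and 4.32 (limma adjusted p = 1.01e-24 and 2.25e-17). Both genes, like ANS, UFGT1 and LAR2 among the enzyme genes, passed the filter on low values only with the compared libraries, which favoured such interactions.

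Several other genes differed between the times by the same test. PG1 rose at T2 and fell by 0.57 at T1 (interaction 3.42; limma adjusted p = 1.22e-24), and CWI fell at T2 while its T1 values were 75.6 ± 1.38 FPKM in T1_RA_SL and 80.0 ± 6.91 FPKM in T1_RA (SD, n = 3 each; interaction -3.60; limma adjusted p = 2.42e-18). PPO fell by 0.48 at T2 and by 0.48 at T1, and the difference between the times did not pass the test (0.00 ± 0.07, SE; limma adjusted p = 0.974). AFS1 rose more at T2, where the level without SL was 249 ± 2.12 FPKM, beside 618 ± 9.78 FPKM in T1_RA (SD, n = 3 each), than at T1 (interaction 1.41; limma adjusted p = 4.55e-21). LOX5a rose by 2.10 at T2 and by 4.52 at T1 (interaction -2.42; limma adjusted p = 2.43e-20).

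The SL response in RA was also set beside that in the low-oxygen regimes at T2. In the deposited values 6119 genes (18.6%) were higher and 14231 (43.2%) lower with SL in ULO, and 5506 (16.7%) were higher and 14983 (45.5%) lower in DCA_CF, 61.8% and 62.2% in all. With relative log expression factors these counts were 9029 higher and 10509 lower in ULO and 8712 higher and 10685 lower in DCA_CF, close to the 8789 higher and 10689 lower in RA. At least 2-fold higher were 4.34% in ULO and 4.12% in DCA_CF, and at least 2-fold lower 12% and 13.5%. Of the 2359 genes at least 2-fold higher in RA, 698 were also 2-fold higher in ULO, 29.6% of the RA genes and 48.8% of the ULO genes, and 147 were 2-fold lower there. For DCA_CF the shared number was 672, 28.5% of the RA genes and 49.6% of the DCA_CF genes, and 297 were 2-fold lower there. Of the 3040 genes at least 2-fold lower in RA, 813 were shared with ULO (26.7% and 20.6%) and 900 with DCA_CF (29.6% and 20.2%). The log2 fold changes across genes correlated with those in RA at T2 with 0.368 in ULO and 0.324 in DCA_CF, again over genes and not replicates.

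The difference in response between regimes, as an interaction, passed the false discovery rate of 0.05 for 18444 genes (56%) between RA and ULO, 12357 higher (37.5%) and 6087 lower (18.5%) in RA, and for 18633 genes (56.6%) between RA and DCA_CF, 12833 higher (39%) and 5800 lower (17.6%). These splits depended on scaling. In the deposited values the median difference over all genes was 0.22 for ULO and 0.23 for DCA_CF. With relative log expression factors the medians were 0.01 and 0, and the splits became 8470 higher and 8569 lower for ULO and 8545 higher and 8748 lower for DCA_CF. With upper quartile factors they were 9070 and 7991 for ULO and 9172 and 8099 for DCA_CF. The interactions given next were larger than that shift, except that of AFS1 against DCA_CF.

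Most flavonoid enzyme genes were higher with SL in RA and lower with SL in ULO and DCA_CF. In ULO 8 of the 12 enzyme genes were lower with SL and 1 was higher, beside 43.2% and 18.6% of all genes. In DCA_CF 7 were lower and 1 was higher, beside 45.5% and 16.7% of all genes. The medians were -0.93 and -1.35, beside -0.21 and -0.24 over all genes. The counts of enzyme genes were the same with each of the 3 other scalings. MdF3H averaged 7.67 ± 0.221 FPKM in T2_ULO_SL and 26.4 ± 1.12 FPKM in T2_ULO, and 8.15 ± 0.202 FPKM in T2_DCA_CF_SL and 37.1 ± 1.04 FPKM in T2_DCA_CF (SD, n = 3 each). The interactions of MdF3H were 5.32 and 5.71 on the log2 scale (limma adjusted p = 6.98e-28 and 1.11e-28). ANR2a rose in all 3 regimes, and more in RA (interactions 1.80 and 1.71; limma adjusted p = 7.04e-10 and 1.93e-09).

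Stress and ethylene genes also parted between regimes. DHN2 fell in RA but averaged 4209 ± 171 FPKM in T2_ULO_SL and 300.5 ± 8.64 FPKM in T2_ULO, and 4628 ± 206 FPKM in T2_DCA_CF_SL and 248 ± 12.5 FPKM in T2_DCA_CF (SD, n = 3 each). Its interactions were -4.96 and -5.37 (limma adjusted p = 5.7e-29 and 4.78e-30). ACS-5A, CWI and PR1a were expressed mainly in RA: without SL at T2 they averaged 109.8, 317 and 248 FPKM in T2_RA, beside 0.272, 1.35 and 0.808 FPKM in T2_ULO. In ULO their log2 fold changes with SL were -0.35, -1.19 and 0.62, and the interactions were -5.16, -2.48 and -4.10 (limma adjusted p = 2.33e-25, 3.56e-15 and 3.56e-16). With a pseudocount of 0.1 the interaction of CWI was -0.14 and did not pass the test (limma adjusted p = 0.775). PPO was likewise high in RA, at 940.3 ± 11.7 FPKM in T2_RA_SL and 1311 ± 18.6 FPKM in T2_RA, beside 8.88 ± 0.508 FPKM in T2_ULO_SL and 23.0 ± 0.0479 FPKM in T2_ULO (SD, n = 3 each). EXPA1 fell with SL in all 3 regimes at T2, and from a higher level in ULO, with 1.49 ± 0.242 FPKM in T2_ULO_SL and 343 ± 8.87 FPKM in T2_ULO (SD, n = 3 each). AFS1 rose in all 3 regimes, to 1188 ± 43.5 FPKM in T2_RA_SL, 1278 ± 29.1 FPKM in T2_ULO_SL and 1339 ± 30.1 FPKM in T2_DCA_CF_SL (SD, n = 3 each). Its response in RA differed from that in ULO (interaction 1.65; limma adjusted p = 6.28e-23) and did not pass the test against DCA_CF (0.04 ± 0.04, SE; limma adjusted p = 0.42). The AFS1 result against DCA_CF depended on scaling, at -0.27 with relative log expression factors and -0.22 with upper quartile factors (limma adjusted p = 2.31e-07 and 9.99e-06).

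**Figure D5:**
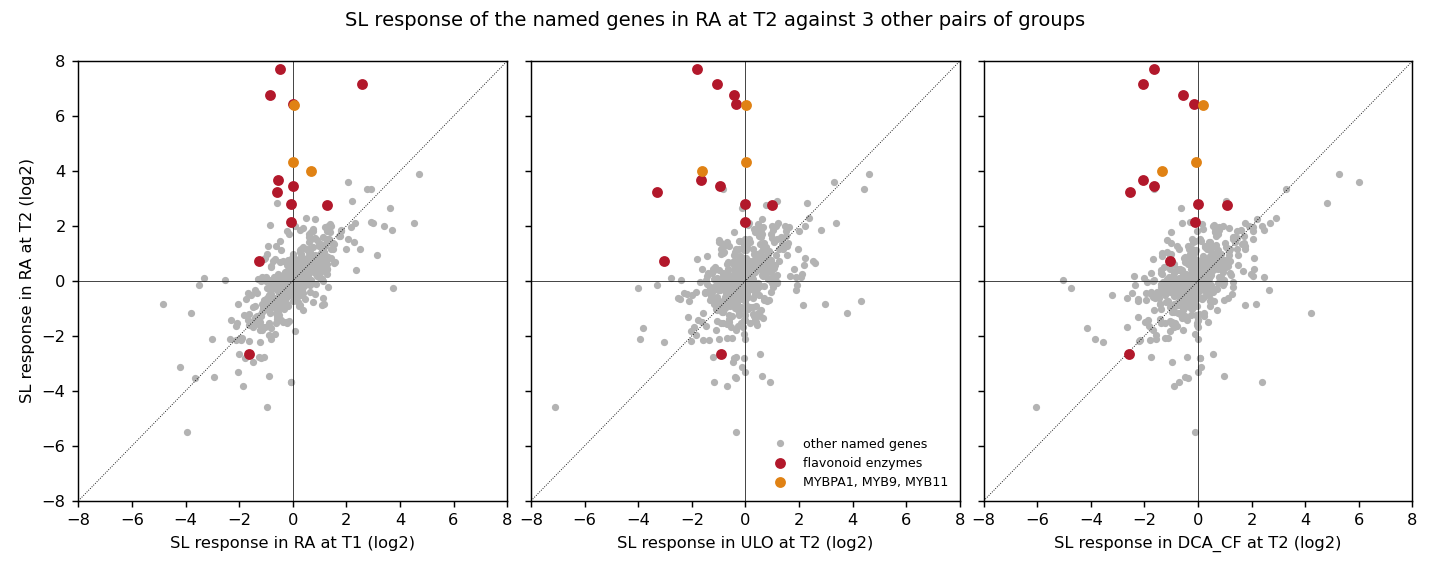
Log2 fold change of SL over no SL in RA at T2 (vertical) against the same in RA at T1, ULO at T2 and DCA_CF at T2 (horizontal) for the named genes, with flavonoid enzymes in red, MYBPA1, MYB9 and MYB11 in orange and the diagonal dotted. Most flavonoid genes sit high on the vertical axis, up to 7.71 for CHS1, while LAR1 did not pass the test and FLS lies at -2.66. The high ones lie at or left of 0 on the horizontal axis apart from DFR at T1 and ANR2a.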

How the data were processed

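RNA from peel was sequenced as 100-base single reads from non-directional libraries, per the labels' protocols. HISAT2, StringTie and DESeq2 are named in the submitters' processing notes, without versions, and the genome build is not given in the sources used here. The table deposited by the authors holds FPKM per gene for 36 libraries. The unit was read from the values, and a rescaled TPM would look alike. The table holds no read counts, so depth was only approximated, and reads of a gene and of an antisense partner cannot be told apart. Columns headed DCA were matched to the samples titled DCA_CF.

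Genes that reached 1 FPKM or more in 3 or more of the 36 libraries were tested with limma 3.58.1 in R 4.3.3 on log2(FPKM + 1). The fit used 12 group means over all 36 libraries, moderated variances with a trend, and Benjamini-Hochberg adjustment at 0.05. All log2 fold changes are on that scale, which understates the change of low genes. Differences between responses are interaction contrasts of the same fit. Per the labels the replicates are biological, and nothing in them ties a letter in 1 group to the same letter in another. Letters did not pair libraries: deviations of same-lettered T2_RA_SL and T2_RA libraries correlated by 0.00465, 0.00732 and 0.0413. Relative log expression, upper quartile and total scaling, a pseudocount of 0.1, other filters and the compared libraries alone were tried. So were a replicate block, no trend and each of the 6 T2_RA_SL and T2_RA libraries left out. Chosen after seeing the data were a filter on the 30 libraries outside the comparison and a fit that drops genes with a 0 in 1 replicate and 5 FPKM or more in another.

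Names came from the table or from the RefSeq gene table (assembly GDT2T_hap1, 34074 of 57423 IDs found), of which no coordinate is used. The comparison and the gene lists were chosen with earlier results of these data known. The lists were corrected by gene name after results were seen, where a symbol had been matched in error or missed. Genes were named by rule: the 12 largest changes per direction with adjusted p under 0.05, a mean level of 2 or more on the log2 scale and groups that do not overlap, up to 2 genes per direction and list by smallest p, AFS1, PPO, ACS1, ACO1, ADH1-1, HMG1, CHS1, DFR and HY5, and 4 genes per direction and interaction. Every other named gene was chosen after its values were seen. No sequences are shown, and no promoter motif search was run.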

Additional observations from a re-analysis of the deposited data

Results flagged for a closer look

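The results here drew attention because the SL response in RA at T2 differed from the SL response in another pair of groups, by a test of the interaction in limma with Benjamini-Hochberg adjustment. They are given as values on the log2(FPKM + 1) scale.

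Against the response in RA at T1, 14533 genes differed. The polygalacturonase inhibitor genes PGIP1 and PGIP2 differed by 3.33 and 3.40 (adjusted p = 5.49e-28 and 1.14e-25). PGIP1 was at 287 ± 3.55 FPKM in T2_RA_SL and 322 ± 5.07 FPKM in T2_RA, beside 203 ± 5.13 FPKM in T1_RA_SL and 2310 ± 19.6 FPKM in T1_RA (SD, n = 3 each). Both belong to a family of close copies, and how reads were divided between them is not given in the sources used here. GAD1 differed by 2.85, with 126 ± 3.36 FPKM in T1_RA_SL and 225 ± 6.38 FPKM in T1_RA (SD, n = 3 each), so that it fell at T1 and rose at T2. ANS, which passed the filter on low values only with the compared libraries, differed by 6.44. The response was lower at T2 for UGT88F1 (-1.53), LOX5a (-2.42), EXPA1 (-3.65) and MYB8 (-1.99). MYB8 fell at T2 and was higher with SL at T1, at 44.1 ± 2.30 FPKM in T1_RA_SL and 19.2 ± 1.67 FPKM in T1_RA (SD, n = 3 each).

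Against the response in ULO at T2, 18444 genes differed. The response was higher in RA for PGIP1 (3.12), MdF3H (5.32), ANS (6.80) and F3H (4.43), and lower in RA for DHN2 (-4.96), ACS-5A (-5.16), XET02 (-1.79) and CIPK31 (-2.23). ACS-5A was expressed mainly in RA, as given above, and its change in ULO was -0.35. Whether its low level in ULO limited that change was not tested. The kinase gene CIPK31 fell to 46.7 ± 1.26 FPKM in T2_RA_SL, against 59.3 ± 1.84 FPKM in T2_RA, and was higher with SL in ULO, at 124 ± 5.06 FPKM in T2_ULO_SL and 32.8 ± 0.697 FPKM in T2_ULO (SD, n = 3 each).

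Against the response in DCA_CF at T2, 18633 genes differed. The response was higher in RA for MdF3H (5.71), F3H (5.12), ANS (6.58) and the sorbitol dehydrogenase gene SDH6 (2.02), and lower in RA for DHN2 (-5.37), CIPK31 (-2.98), ACS-5A (-5.38) and OMT1 (-2.40). In DCA_CF itself ACS-5A changed by -0.13 with SL and did not pass the test (limma adjusted p = 0.106). OMT1 rose in both regimes, and in DCA_CF it averaged 1427 ± 4.09 FPKM in T2_DCA_CF_SL and 21.4 ± 1.08 FPKM in T2_DCA_CF (SD, n = 3 each).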

How the results depend on the processing

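Of 258 results for named genes, 4284 of 4351 alternative values kept their side of the threshold and, where called, their direction. Another 56 lost the call, 9 gained it and 2 turned, where a turn counted only if the main or the alternative value passed the test. Those 2 were the difference of the AFS1 response between RA and DCA_CF, at -0.27 with relative log expression factors and -0.22 with upper quartile factors. The larger side of the count of differing genes turned as well: between T2 and T1 there were 6810 higher and 7790 lower with relative log expression factors and 6848 and 7317 with equal totals, and between RA and ULO 8470 and 8569 with relative log expression factors. Of 782 alternative counts for 46 list results, 29 moved by over 1.5 times, in the AP2/ERF (5 higher with equal totals), MADS-box, TCP, Aux/IAA, bHLH (2 lower without a filter or from the 6 libraries alone), cold response, homeodomain and mitochondrial lists. Leaving out each of the 6 compared libraries in turn gave 8456 to 8527 genes higher and 9810 to 10071 lower in T2_RA_SL. At 2-fold the ranges were 2332 to 2374 and 3002 to 3087. The interactions ranged from 7329 to 7433 higher and 6414 to 6708 lower against T1, from 11864 to 12035 and 5844 to 5921 against ULO, and from 12403 to 12529 and 5550 to 5681 against DCA_CF. No T1, ULO or DCA_CF library was left out in these ranges, so they do not cover that side of the interactions. The flavonoid count of lower genes, 1, ranged from 0 to 1, and was 0 without replicate b or c of T2_RA_SL or replicate c of T2_RA. With relative log expression factors the DCA_CF interaction had 8545 genes higher and 8748 lower. With the lists as first written, before names were corrected, 6 flavonoid genes were lower and 2 farnesene genes higher, and the cell wall list had 4 higher and 5 lower. With a replicate block the counts were 8947 higher and 10376 lower, and it changed no call of a named gene or list result, with letters that are not known to pair libraries.

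The files hold no read counts, so no interval from depth can be given, and low genes carry more error. A 0 in such files can be a failed estimate: without the genes listed at 0 beside a replicate of 5 FPKM or more, a filter chosen after seeing the data, 8965 genes were higher and 10370 lower.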

Other observations

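Genes outside the pathways above were chosen after their values were seen. The plasma membrane aquaporin genes PIP1a, PIP1b and PIP1, whose proteins carry water, belong to no list, and other aquaporin genes were not examined. PIP1a was at 994 ± 41.5 FPKM in T2_RA_SL and 413 ± 13.1 FPKM in T2_RA, PIP1b at 355 ± 7.84 FPKM in T2_RA_SL and 101 ± 4.80 FPKM in T2_RA, and PIP1 at 28.3 ± 1.09 FPKM in T2_RA_SL and 5.80 ± 0.262 FPKM in T2_RA (SD, n = 3 each). Their log2 fold changes were 1.27, 1.80 and 2.11. Of the gibberellin genes, the receptor gene GID1b and the synthesis gene KAO rose by 1.97 and 1.51, and the receptor gene GID1a fell by 1.14. The carotenoid synthesis genes ZDS1-1 and PSY2 rose by 1.53 and 0.90, and PSY2 was lower with SL in ULO and DCA_CF (-1.42 and -1.35; interactions 2.32 and 2.25, limma adjusted p = 1.98e-21 and 2.87e-21). The Rubisco activase gene rca averaged 39.4 ± 1.15 FPKM in T2_RA_SL and 3.05 ± 0.615 FPKM in T2_RA (SD, n = 3 each). The MADS-box genes DAM1 and DAM2, of a family tied to bud dormancy, moved apart, by -2.13 and 1.85. The actin-binding gene Profilin-1 rose by 3.33, and the zinc finger gene C2H2L23 fell by 3.49. Of the cuticle genes, GDSL and GPAT rose by 1.46 and 1.18, and of the light genes UVR8 rose by 0.24 and HY5 fell. On the mitochondrial genome, 2 genes were higher and 5 lower of 32, beside 27.3% and 31.6% of all genes. The higher count was 1 without replicate a of T2_RA_SL or replicate b or c of T2_RA. The lower count was 3 without replicate c of T2_RA_SL or replicate a of T2_RA. Of these genes rps19 rose by 2.09. The ribosomal gene 18rrn averaged 285 ± 10.2 FPKM in T2_RA_SL and 633 ± 20.9 FPKM in T2_RA (SD, n = 3 each), and its part in the results was not tested.

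Genes without a name held some of the widest gaps. LOC103444308 averaged 3647 ± 41.1 FPKM in T2_RA_SL and 57.3 ± 2.44 FPKM in T2_RA (SD, n = 3 each; log2 fold change 5.97). LOC103420259 was at 72.9, 74.5 and 73.9 FPKM in T2_RA_SL, against 0, 0 and 0.0217 FPKM in T2_RA, and at most 0.273 FPKM in any other library. It passed the filter on low values only through the T2_RA_SL libraries, so that it had to differ. LOC103404960 was at 9.37, 10.1 and 9.02 FPKM in T2_RA_SL, against 809.6, 811 and 809 FPKM in T2_RA, and LOC103432770 was at 6.97, 7.02 and 6.38 FPKM in T2_RA_SL, against 516, 482 and 513 FPKM in T2_RA. Listed at 0 in all 3 T2_RA libraries and at 10 FPKM or more in all 3 T2_RA_SL libraries were 6 genes, and 12 genes showed the reverse. By gene type, 17.8% of 20784 protein-coding genes and 13.6% of 774 long non-coding RNA genes changed at least 2-fold, of which 67 long non-coding RNA genes were higher and 38 lower.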
